A study of Mus musculus with 18 samples.

Results

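The genes followed here are the 3 Foxa transcription factors and 7 genes of endoderm and its epithelial and hepatic derivatives: Foxa1, Foxa2, Foxa3, Alb, Afp, Ttr, Apoe, Apoa1, Krt8 and Krt18. They were taken by gene symbol, and all 10 stood among the 23337 genes of the read count table. Of these, 9 were tested, and Foxa3 had too few reads in every library to pass the expression filter. PolyA RNA came from mouse embryonic stem cells that were being differentiated into cardiomyocytes. All samples came from 1 line, GLI1-FTA (strain A2Lox.cre), in which adding doxycycline turns on GLI1, an activator at the end of Hedgehog signalling. There were 4 untreated controls at day 5 (D5), 3 at day 6 (D6) and 2 each at day 8 (D8) and day 12 (D12). GLI1 overexpression (OE) samples had 500 ng/ml doxycycline for 24 hours between D5 and D6, followed by washing, with 3 samples at D6, 2 at D8 and 2 at D12. No control received doxycycline, so an effect of the drug and one of GLI1 cannot be told apart. The labels call the cells cardiac progenitors at D5 and D6 and immature cardiomyocytes at D8 and D12, and all 13 cardiac marker genes had reads in every library.

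Foxa proteins are forkhead factors that can bind their sites in compact chromatin and open it for other regulators. Foxa2 is needed for the node, notochord, floor plate and definitive endoderm, and Foxa1 and Foxa2 together make foregut endoderm competent to form liver. Alb, Afp, Ttr, Apoa1 and Apoe encode proteins secreted by hepatocytes, and Afp, Ttr and the apolipoproteins are also products of yolk sac visceral endoderm. Apoe is made by many other cells, macrophages among them. Krt8 and Krt18 are partner keratins of simple epithelia such as the lining of the gut and yolk sac. In the ventral neural tube Foxa2 is a known direct target of GLI proteins.

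Libraries held 18470785 to 26184339 reads. Gli1 itself checked the labels: the D6 GLI1 OE libraries held 908.8 ± 134 CPM (reads scaled to the library's adjusted total, SD, n = 3) against 13.99 ± 7.28 CPM in D6 controls (n = 3), a log2 fold change of 6.02 ± 0.59 (SE, adjusted p = 4.31e-05, edgeR quasi-likelihood test). By D8 Gli1 stood at 1.19 ± 0.373 CPM with GLI1 OE, near the 0.964 ± 0.300 CPM of the controls (n = 2 each). Some later libraries stood apart. Per gene, the chi-square between the D8 GLI1 OE pair, libraries 14 and 18, was 129, where other pairs within a group gave 7.18 to 99.5. The summed CPM of the 13 cardiac marker genes was 1074 in library 18, against 10166 in library 14 and 5262 and 12146 in the D8 controls. D12 GLI1 OE library 20 held 2568 CPM of the same markers, against 5145.5 in library 10 and 4631 and 9833 in the D12 controls. By chi-square its pair, libraries 10 and 20, did not stand apart (45.7, against 40.7 for the D12 controls). Results at D8 and D12 are therefore given with and without these libraries.

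Foxa2 was the member that GLI1 induction changed most at D6. The D6 GLI1 OE libraries held 2013, 2418 and 2068 Foxa2 reads (95.5, 111.8 and 85.5 CPM), and the D6 controls held 17, 14 and 6 (0.791, 0.654 and 0.255 CPM). All 3 induced libraries were far above all 3 controls. Foxa2 rose by a log2 fold change of 7.43 ± 0.97 (SE), or 172-fold, with an adjusted p of 0.00042 in edgeR's quasi-likelihood test. The D5 controls, collected just before induction, held 3 to 8 Foxa2 reads (0.244 ± 0.0948 CPM, SD, n = 4). Foxa2 therefore stood near the detection limit before the pulse, with 3 reads in a library of mean depth being worth 0.135 CPM.

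The other Foxa factors did not share this rise. Foxa1, which overlaps Foxa2 in endoderm function, had 15, 10 and 32 reads in the D6 GLI1 OE libraries and 18, 7 and 7 in the D6 controls. These groups overlapped, and the log2 fold change was 0.78 ± 0.78 (adjusted p = 0.731, edgeR). Foxa3, the family member best known from liver and gut, had 1, 1 and 4 reads in D6 GLI1 OE and 4, 0 and 4 in controls. It never exceeded 9 reads in any of the 18 libraries and was not tested. Foxa2 reads per length of merged exon were 172 times those of Foxa1 and 1056 times those of Foxa3 in D6 GLI1 OE. In D6 controls the same ratios were 1.70 and 4.46. The fold changes of Foxa1 and Foxa2 were not tested against each other.

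**Figure D1:**
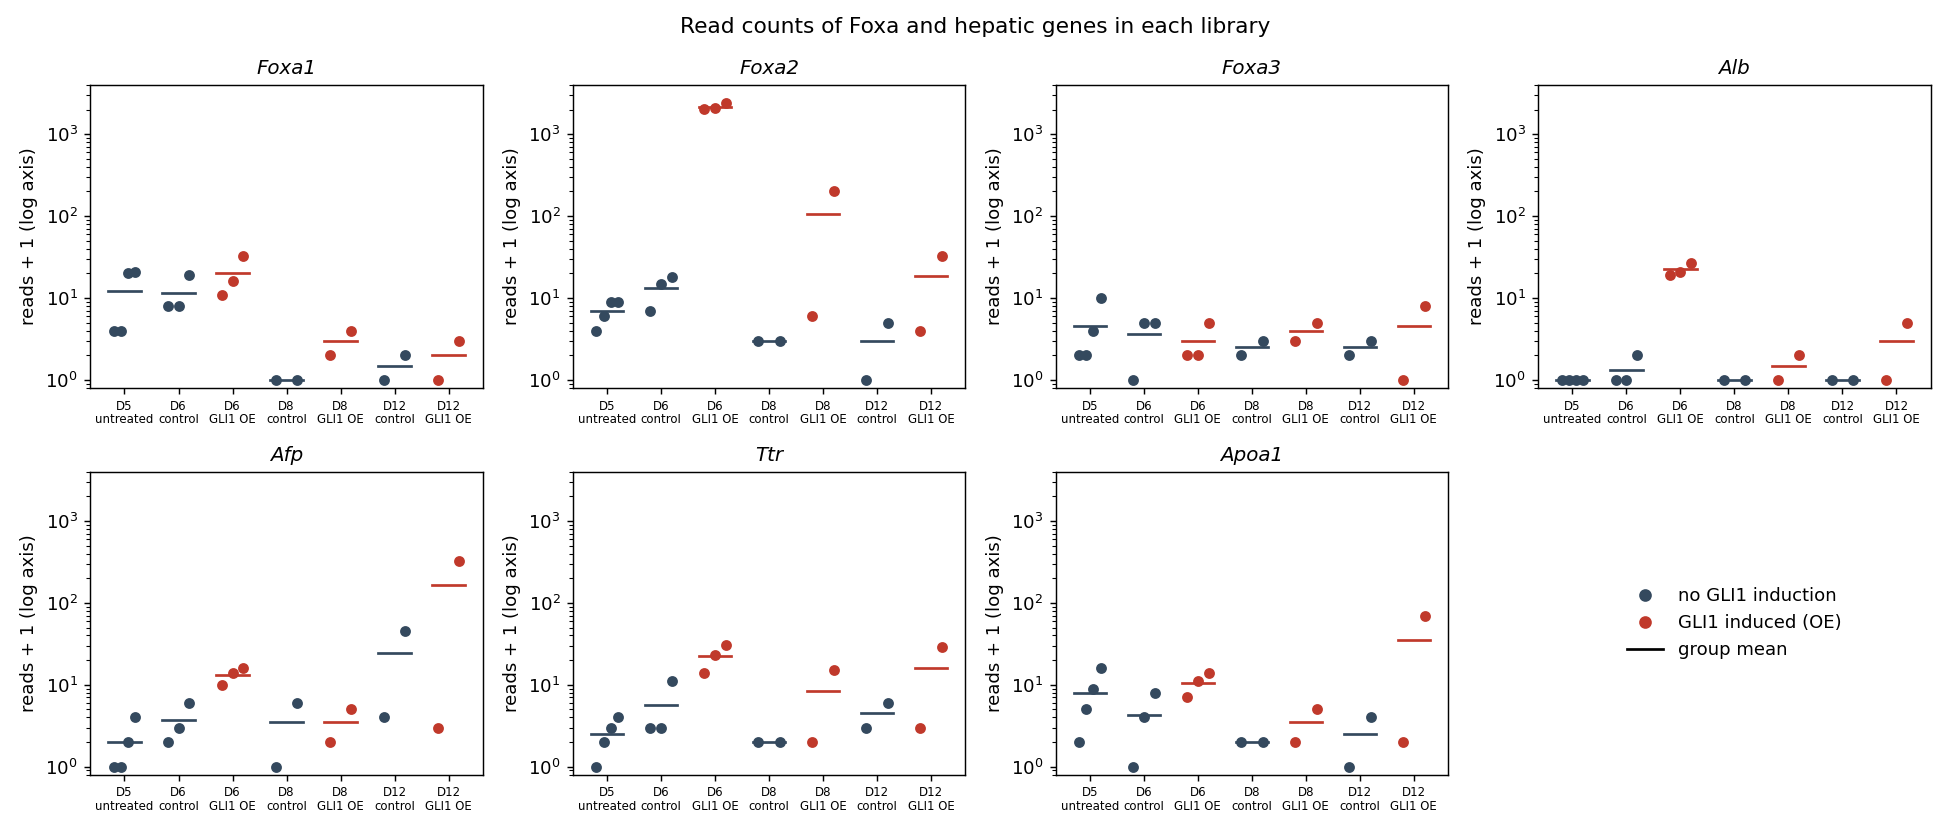
Reads of the 7 members with low counts in each library (points; vertical axis, reads + 1 on a log scale) for the 7 groups (horizontal axis), with bars at the group means and GLI1-induced groups in red. Foxa2 lies at 2013 to 2418 reads in D6 GLI1 OE and at 0 to 204 elsewhere, Alb is at 18 to 26 reads only in D6 GLI1 OE, and 1 library of D12 GLI1 OE lies above the other for Afp and Apoa1.

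Among the secreted hepatic proteins, albumin was the one that also passed the test at D6. Alb had 20, 18 and 26 reads in the D6 GLI1 OE libraries, and 0, 0 and 1 in the D6 controls. All 4 D5 controls had 0 reads, so nearly all Alb reads before D8 came from induced cells. The summed reads, 64 against 1, made a ratio of 63.6 (exact 95% interval 11.01 to 2550), an interval that covers counting error only. The fitted log2 fold change was 5.54 (adjusted p = 0.0171, edgeR). Albumin passed the expression filter through the 3 D6 GLI1 OE libraries alone, so a difference was built into its passing. Its call also depended on the settings, and 6 of the 12 alternatives kept it. DESeq2 fitted to all 18 libraries gave an adjusted p of 0.150, and limma-voom gave 0.00014. With edgeR the call was lost in 5 of the 6 fits that left out 1 D6 library (adjusted p of 0.0541 to 0.0833), all but the fit without GLI1 OE library 12. In absolute terms albumin stayed low, at 0.952 ± 0.121 CPM (SD, n = 3).

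Ttr, which carries thyroxine and retinol-binding protein, had 13, 30 and 22 reads in D6 GLI1 OE and 2, 10 and 2 in D6 controls. The groups did not overlap, but the log2 fold change of 2.16 ± 0.92 missed the threshold (adjusted p = 0.259, edgeR). Afp, the fetal counterpart of albumin, had 13, 9 and 15 reads in D6 GLI1 OE and 1, 5 and 2 in D6 controls. Its groups were also apart, with a log2 fold change of 2.14 ± 1.45 (adjusted p = 0.557, edgeR). Apoa1, the main protein of high-density lipoprotein, had 10, 13 and 6 reads against 0, 7 and 3, and these groups overlapped (log2 fold change 1.51 ± 1.21, adjusted p = 0.641, edgeR). The estimates for Alb, Ttr, Afp and Apoa1 were thus all above 0. Of these 4 low hepatic genes 1 was called, where 4.14% of all tested genes were. That 1 was Alb, which the induced libraries alone brought past the filter. In the authors' deposited DESeq2 results for D6, the log2 fold changes were 7.46 for Foxa2, 5.89 for Alb, 2.20 for Ttr, 2.20 for Afp and 1.55 for Apoa1. Only Foxa2 (4.15e-143) and Alb (0.000226) had an adjusted p under 0.05 among the 10 members in the authors' deposited table, which gives none for Foxa3.

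Apoe and the keratins were abundant at D6 and did not pass the test. Apoe stood at 246, 180 and 240 CPM in D6 GLI1 OE and at 323, 238 and 302 CPM in D6 controls, with a log2 fold change of -0.38 ± 0.43 (adjusted p = 0.774, edgeR). Krt8 stood at 285, 185 and 233 CPM against 266, 193 and 263 CPM (log2 fold change -0.04 ± 0.29, adjusted p = 0.981, edgeR). Krt18 stood at 321, 161 and 231 CPM against 310, 179 and 262 CPM (log2 fold change -0.07 ± 0.29, adjusted p = 0.956, edgeR). The induced and control libraries of each of these 3 genes overlapped. For the keratins, libraries with neighbouring numbers resembled each other: control 11 and GLI1 OE 12 were the highest for Krt18, and control 15 and GLI1 OE 16 the lowest.

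Across the members at D6, 2 of 9 tested were called, both higher, where 4.14% of all 14892 tested genes were called and 3.02% were called higher. Alb, 1 of the 2, was admitted to the test by the induced libraries alone, so the count is not independent of the filter. Estimates were above 0 for 6 of the 9, with a median of 1.51 against -0.02 over all tested genes. Groups did not overlap for 4 of the 10 (4 of the 9 tested), namely Foxa2, Alb, Afp and Ttr, all higher with induction. Of all tested genes, 13.2% had induced libraries that were all above the controls. Compared per kilobase of merged exon, D6 GLI1 OE held Krt18 at 166 ± 55.7 CPM per kb, Apoe at 121 ± 19.9 and Krt8 at 120 ± 25.6 (SD, n = 3), whose ranges overlapped. Foxa2 came next at 44.8 ± 6.09 CPM per kb, with all 3 libraries below those of the epithelial genes and Apoe. Far below it lay Ttr at 0.819 ± 0.328 and Alb at 0.468 ± 0.0596 CPM per kb, then Apoa1, Afp and Foxa1 between 0.261 and 0.426 and Foxa3 at 0.0424. Per length, Foxa2 thus exceeded Ttr 54.7-fold and Alb 95.7-fold in the same induced cells. Cardiac markers moved with these changes: their sum was 1210 to 2941 CPM in D6 GLI1 OE and 3451 to 7356 CPM in D6 controls, and its part in the results was not tested. In bulk RNA, fewer cells of a type and less RNA per cell cannot be told apart.

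The sequences just upstream of Foxa2 and of 3 of the low hepatic genes are shown, and whether Foxa2 binds or acts there was not tested. These windows were chosen from the D6 values, where Foxa2 and Alb were called higher and the estimates for Afp and Apoa1 were above 0. Each is the 250 bases before a RefSeq transcription start on GRCm38.p6, read on the gene's strand from 5′ to 3′, with motif matches in capitals. For Foxa2, which has 3 such starts, the window of the most upstream one is given (chr2:148046970-148047219, minus strand). The others are Alb (chr5:90460620-90460869, plus strand), Afp (chr5:90490464-90490713, plus strand) and Apoa1 (chr9:46228380-46228629, plus strand).
Foxa2: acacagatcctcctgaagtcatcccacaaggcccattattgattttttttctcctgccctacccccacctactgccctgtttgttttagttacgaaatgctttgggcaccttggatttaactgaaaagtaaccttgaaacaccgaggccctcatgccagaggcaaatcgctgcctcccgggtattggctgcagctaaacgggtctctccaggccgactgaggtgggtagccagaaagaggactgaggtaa
Alb: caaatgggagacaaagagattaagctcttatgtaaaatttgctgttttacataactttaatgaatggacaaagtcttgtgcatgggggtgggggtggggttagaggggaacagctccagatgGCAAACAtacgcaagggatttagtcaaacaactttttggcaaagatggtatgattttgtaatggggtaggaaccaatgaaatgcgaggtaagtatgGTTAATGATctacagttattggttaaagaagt
Afp: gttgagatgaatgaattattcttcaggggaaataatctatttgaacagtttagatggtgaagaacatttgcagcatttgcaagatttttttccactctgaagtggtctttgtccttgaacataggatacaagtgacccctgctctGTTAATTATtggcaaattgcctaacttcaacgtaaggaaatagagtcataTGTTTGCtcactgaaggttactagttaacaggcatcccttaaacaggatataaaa
Apoa1: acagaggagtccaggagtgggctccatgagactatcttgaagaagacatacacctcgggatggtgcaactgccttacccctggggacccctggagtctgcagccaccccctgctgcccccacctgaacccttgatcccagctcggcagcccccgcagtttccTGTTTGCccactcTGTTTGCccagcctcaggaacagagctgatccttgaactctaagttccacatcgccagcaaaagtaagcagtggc
Motifs were searched as exact letters on both strands: the forkhead heptamer TGTTTAC with its variant forms TATTTAC (second base changed), then TGTTTGC (sixth base changed), and lastly TATTTGC (both changed), the GLI motif GACCACCCA and the HNF1 motif GTTAATNAT, HNF1 being a liver and gut endoderm factor. The Alb window holds the forkhead heptamer TGTTTGC, on the opposite strand, at bases 128 to 122 before the start, and the HNF1 motif at bases 32 to 24. The Afp window holds TGTTTGC at bases 55 to 49 and the HNF1 motif at bases 105 to 97. The Apoa1 window holds TGTTTGC at bases 88 to 82 and again at 75 to 69. No match overlapped another. At least 1 forkhead heptamer occurs in 11.9% of 32851 such windows, the HNF1 motif in 0.737% and the GLI motif in 0.225%. None of the 3 Foxa2 windows holds any of these motifs, nor do those of Foxa3, Apoe, Krt8 and Krt18, and the Foxa1 window holds the heptamer TGTTTAC on the opposite strand. RefSeq windows were matched for 9 of the 10 members, and Ttr was the one not matched. In GENCODE vM21 (GRCm38) Foxa2 spans chr2:148042877-148046969 on the minus strand. Alb (chr5:90460897-90476602) and Afp (chr5:90490737-90508907), both on the plus strand, have no protein-coding gene between them. Krt8 (chr15:101996698-102004482, minus strand) and Krt18 (chr15:102028180-102032027, plus strand) are neighbours in the same sense.

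After washout, Foxa2 fell in the GLI1 OE samples from D6 to D8. At D8 GLI1 OE library 14 held 5 Foxa2 reads (0.231 CPM) and library 18 held 204 (9.26 CPM), against 2 in each D8 control. Both induced libraries were above both controls, but only library 18 was far above. The fall from D6 GLI1 OE to D8 GLI1 OE was 20.5-fold (log2 fold change -4.36 ± 0.96, adjusted p = 0.00297, edgeR). Without library 18 it was -8.68 (adjusted p = 7.65e-05), and without library 14 it was -3.41 (adjusted p = 0.00451).

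Against D8 controls, Foxa2 in D8 GLI1 OE had a log2 fold change of 5.67 ± 1.42 with an adjusted p of 0.489 in edgeR, not called. DESeq2 called it (adjusted p = 0.0295), as did edgeR without library 14 (log2 fold change 6.61, adjusted p = 0.0140). Without library 18 the log2 fold change was 1.34. Foxa2 at D8 therefore rested on 1 of 2 libraries. The effect of GLI1 OE on Foxa2 at D8 minus that at D6 was -1.76 on the log2 scale (adjusted p = 0.998, edgeR), so a difference between the days was not shown. Such differences were called for 0.631% of tested genes, and for Gli1 (-5.72, adjusted p = 0.0277, edgeR).

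At D8 Alb, Afp, Ttr and Apoa1 had at most 5 reads in any library, with the exception of Ttr in library 18. Ttr had 14 reads in library 18 and 1 in each of the other 3 D8 libraries (log2 fold change 2.81 ± 1.48, adjusted p = 0.843, edgeR; 0.07 without library 18). Alb had 1 read in library 14 and 0 in library 18 and in both controls. Afp had 1 and 4 reads in GLI1 OE and 5 and 0 in controls, and Apoa1 had 1 and 4 against 1 and 1. Alb fell from D6 to D8 in the GLI1 OE samples, with 1 read left where D6 had 64 (ratio 0.0240, exact 95% interval 0.000597 to 0.138; adjusted p = 0.00827, edgeR). Since the D6 GLI1 OE libraries alone brought Alb past the filter, a fall from them was built in.

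Foxa1 had 1 and 3 reads in D8 GLI1 OE and 0 in both D8 controls. Apoe was lower in both D8 GLI1 OE libraries (600 CPM in library 14 and 192 CPM in library 18) than in the D8 controls (793 and 721 CPM). Its log2 fold change was -0.94 ± 0.53 (adjusted p = 0.859, edgeR), and moved to -0.33 without library 18. Krt8 stood at 67.9 and 125.6 CPM in D8 GLI1 OE libraries 14 and 18 and at 46.3 and 69.0 CPM in D8 controls (log2 fold change 0.75 ± 0.36, adjusted p = 0.831, edgeR). Krt18 stood at 65.6 and 124.7 CPM against 62.9 and 55.9 CPM (0.68 ± 0.36, adjusted p = 0.855, edgeR). Library 18 was the highest for both, and without it the log2 fold changes were 0.24 and 0.15.

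No member was called at D8 by edgeR, as none of the 14892 tested genes was (0%), although 886 genes and 1 member, Foxa2, had an unadjusted p under 0.05. DESeq2 called 36 genes at D8 and limma-voom none. Groups did not overlap for 7 of the 10 members at D8 (6 of the 9 tested), where 32.2% of all tested genes did not overlap with 2 libraries a group. For Ttr, Apoa1 and Foxa3 the lowest induced and the highest control library had equal reads and differed only by library size. In the authors' deposited table for D8, which matched 3 members, the log2 fold changes were -0.93 for Apoe, 0.80 for Krt8 and 0.67 for Krt18, each with an adjusted p of 1.

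At D12 the 2 GLI1 OE libraries differed widely in the low hepatic genes. Library 20 had 325 Afp, 68 Apoa1, 28 Ttr, 32 Foxa2 and 4 Alb reads, and library 10 had 2, 1, 2, 3 and 0 of the same genes. The D12 controls 19 and 9 had 44 and 3 Afp, 3 and 0 Apoa1, 5 and 2 Ttr and 0 and 4 Foxa2 reads, and no Alb read. Library 10 was thus no higher than the higher control for any of these genes, control 19 held more Afp than control 9, and library 20 was the highest of the 4 D12 libraries for all 7 members other than Apoe, Krt8 and Krt18. At D8 library 18 was the highest for 4 of these 7.

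No member was called at D12. The log2 fold changes were 2.56 ± 1.42 for Afp (adjusted p = 0.915), 4.23 ± 1.58 for Apoa1 (adjusted p = 0.7999), 1.91 ± 1.19 for Ttr (adjusted p = 0.922) and 2.95 ± 1.67 for Foxa2 (adjusted p = 0.916), all by edgeR. Without library 20 they were -3.38 for Afp, -0.42 for Apoa1, -0.65 for Ttr and 0.70 for Foxa2. Of all tested genes 0% were called at D12 by edgeR, with 840 genes and 1 member, Apoa1, at an unadjusted p under 0.05. DESeq2 called 14 genes and limma-voom 1, none of them members. From D8 to D12 in GLI1 OE samples, Afp passed the test (log2 fold change 5.94 ± 1.78, adjusted p = 0.0204, edgeR), but without library 20 the change was 0.02 (adjusted p = 0.999). The call was also lost without library 14 (5.33, adjusted p = 0.107) or 18 (7.16, adjusted p = 0.0751). In the same step Apoa1 rose by 3.72 ± 1.48 on the log2 scale (adjusted p = 0.0672, edgeR) and was not called. Foxa2 fell by 2.50 ± 1.04 (adjusted p = 0.0799, edgeR), also not called. Without library 10 the log2 fold change of Apoa1 was 4.66, and without library 14 that of Foxa2 was -3.42. Each of these fits left 1 library in a group. The fit for Apoa1 kept library 20, which held 68 of its 69 reads in D12 GLI1 OE.

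Library 20 also held reads of other hepatic and visceral endoderm genes. Of a list of 17 such genes that includes none of the members, library 20 was the highest D12 library for 11. Of the 17, 1 had no read in library 20, against 5 to 10 in the other D12 libraries. No share over all genes was taken for these counts. Library 20 also had the most genes detected at D12 (16425 against 15889 to 15997). It was the highest for 8 of 14 simple epithelial and 6 of 16 definitive and gut endoderm genes as well. Among floor plate and cardiac genes it was the highest for 3 of 14 and 1 of 13. It held 258 reads of Apob, the structural protein of very-low-density lipoprotein, where the other D12 libraries held 2 to 20. Hnf4a, a nuclear receptor of hepatocytes and visceral endoderm, had 15 reads in library 20 and 0 in the other 3. Other genes of the list went the other way. Ahsg, a plasma protein made by liver, had 67 and 48 reads in the controls, 27 in library 20 and 10 in library 10, and Trf, which encodes transferrin, had 1080 reads in library 20 and 1246 to 1568 in the others. These 4 genes were singled out after their values were seen. The summed CPM of the list did not set the library apart (230 in library 20 against 201 to 229), since Dab2 and Trf, which were read in all D12 libraries, made up most of it. Library 20 also had the fewest Apoe reads at D12.

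**Figure D2:**
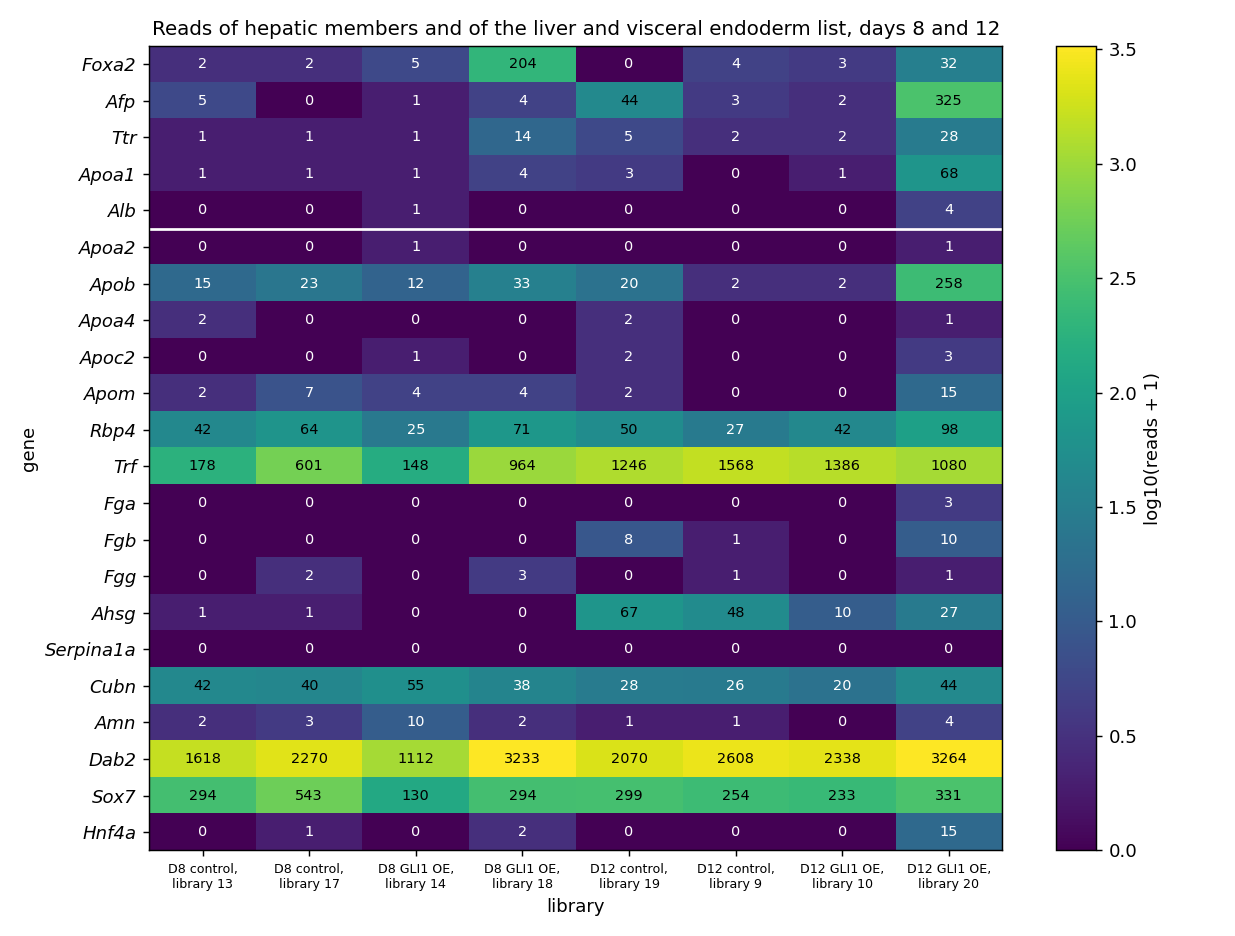
Reads in each D8 and D12 library (columns) for 5 members (above the white line) and the 17 genes of the liver and visceral endoderm list (below it), with colour as log10(reads + 1) and the read count printed in each cell. D12 GLI1 OE library 20 holds 325 Afp, 258 Apob and 68 Apoa1 reads, where library 10 of the same group holds 2, 2 and 1.

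Apoe at D12 stood at 1800 CPM in GLI1 OE library 10 and 741 CPM in library 20, below the 1823 and 2257 CPM of the controls. The groups did not overlap, though library 10 lay close to the lower control, and the log2 fold change of -0.68 ± 0.52 missed the threshold (adjusted p = 0.959, edgeR; -0.17 without library 20). Krt8 stood at 30.3 and 13.45 CPM in D12 GLI1 OE and at 14.7 and 18.6 CPM in controls (log2 fold change 0.39 ± 0.37, adjusted p = 0.971, edgeR). Krt18 stood at 54.1 and 29.9 CPM against 46.4 and 37.9 CPM (log2 fold change -0.0048 ± 0.37, adjusted p = 1, edgeR). For both keratins library 10 was the highest and library 20 the lowest of the 4, the reverse of the order for Afp. In the authors' deposited table for D12, the log2 fold changes were -0.68 for Apoe, 0.36 for Krt8 and -0.01 for Krt18.

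**Figure D3:**
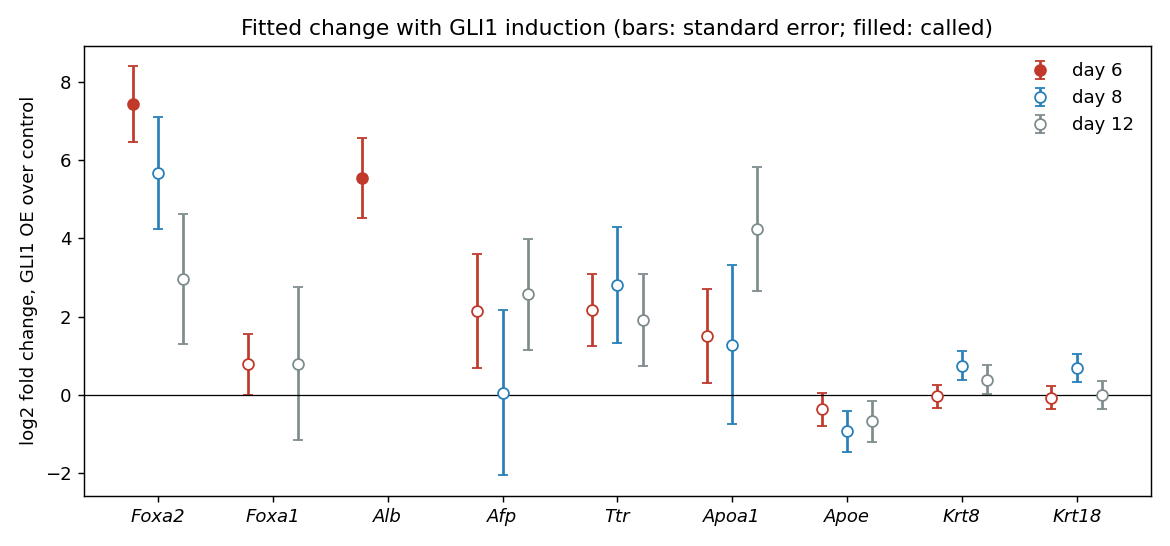
Log2 fold change of GLI1 OE over control (vertical axis; points with SE bars from edgeR) for 9 members (horizontal axis) at D6, D8 and D12, filled where called. Foxa2 (7.43 ± 0.97) and Alb (5.54 ± 1.03) at D6 are the filled points, the D8 and D12 points of Alb and the D8 point of Foxa1 are left out because those control groups had no read, and Apoe is below 0 on all 3 days without passing the test.

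The controls show how these genes behave without the pulse, and most of the movement was after D6. Between D5 and D6 no member passed the test (0 of 9 tested, with none at an unadjusted p under 0.05), where 18.4% of tested genes did. DESeq2 and limma-voom also called 0 members in that step. Krt8 went from 324.5 ± 52.6 CPM at D5 (SD, n = 4) to 240.6 ± 41.2 CPM at D6 (n = 3), and Krt18 from 241.8 ± 32.7 to 250.6 ± 66.2 CPM. All D6 controls were below all D5 controls for Krt8 (log2 fold change -0.43 ± 0.28, adjusted p = 0.311, edgeR), and those of Krt18 overlapped. The ratio of Krt8 to Krt18 reads was 1.31 to 1.38 in the D5 libraries and 0.855 to 1.15 in the 6 D6 libraries, without overlap. Apoe stood at 285.5 ± 144 CPM at D5 and 287.8 ± 44.2 CPM at D6.

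From D6 to D8 in controls, 4 of the 9 tested members passed the test (34.8% of all tested genes did). Krt8 fell by 2.06 ± 0.36 on the log2 scale, to 57.6 ± 16.01 CPM (adjusted p = 0.00075, edgeR), and Krt18 by 2.08 ± 0.36, to 59.4 ± 4.94 CPM (adjusted p = 0.00075, edgeR). Apoe rose 2.63-fold to 757.0 ± 51.5 CPM (adjusted p = 0.0339, edgeR), a call that each fit without 1 of these libraries lost (adjusted p of 0.0625 to 0.141). Foxa1, with 18, 7 and 7 reads in D6 controls, had none in either D8 control, which is at least 7.31-fold lower against 3 reads over the group (adjusted p = 0.0153, edgeR). Foxa1 lost its call without either D8 control (adjusted p = 0.0865 and 0.0768).

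From D8 to D12 in controls, 2 of the 9 tested members passed (36.3% of all tested genes did). Apoe rose a further 2.69-fold to 2040 ± 307 CPM (adjusted p = 0.0492, edgeR), and lost the call in every fit that left out 1 of the 4 libraries (adjusted p of 0.0916 to 0.182). Krt8 fell by 1.79 ± 0.38 on the log2 scale, to 16.7 ± 2.79 CPM (adjusted p = 0.0025, edgeR). Krt18 stood at 42.1 ± 5.99 CPM (log2 fold change -0.50 ± 0.37, adjusted p = 0.310, edgeR). The keratin partners thus parted, with 0.317 and 0.492 Krt8 reads per Krt18 read in the D12 controls and 0.560 and 0.449 in the D12 GLI1 OE libraries.

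**Figure D4:**
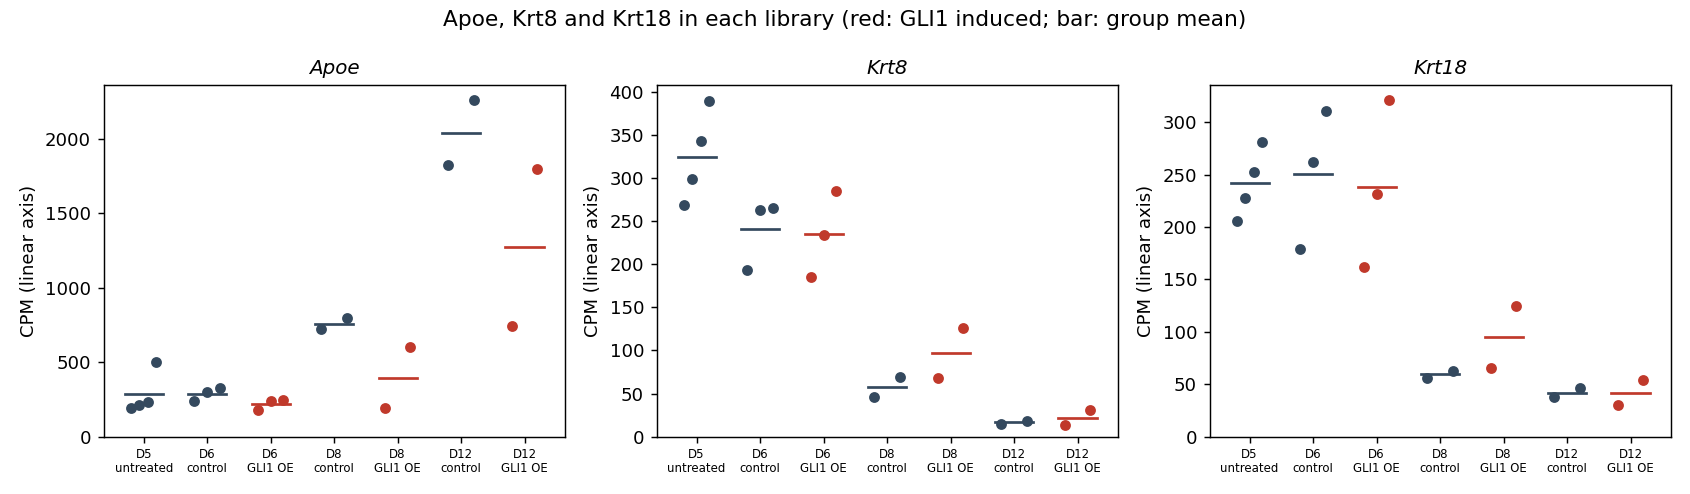
CPM of Apoe, Krt8 and Krt18 (vertical axes, linear from 0) in each library (points) of the 7 groups, with bars at group means and GLI1-induced groups in red. Apoe rises from 287.8 CPM in D6 controls to 2040 CPM in D12 controls while Krt8 falls from 240.6 to 16.7 CPM, and GLI1 OE libraries 18 (D8) and 20 (D12) are the lower points of their groups for Apoe.

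The GLI1 OE samples followed for the keratins, and for Apoe from D8 on. From D6 to D8, Krt8 fell by 1.28 ± 0.34 and Krt18 by 1.32 ± 0.34 on the log2 scale (adjusted p = 0.00962 and 0.00835, edgeR), both losing the call without library 14 (adjusted p = 0.117 and 0.107). Foxa1 fell too, from 57 reads in the 3 D6 libraries to 4 in the 2 D8 libraries (log2 fold change -3.11 ± 1.10, adjusted p = 0.0385, edgeR). Foxa1 stayed called only in the fit without D6 library 16 among the 5 that left out 1 library (adjusted p of 0.0416 to 0.207). With Foxa2 and Alb, the latter subject to the filter as above, this made 5 of 9 tested members lower and none higher from D6 to D8 (40.1% of all tested genes passed). Apoe had a log2 fold change of 0.83 ± 0.47 there (adjusted p = 0.174, edgeR), and passed without library 18 (1.44, adjusted p = 0.0316). From D8 to D12, Apoe rose 3.21-fold (adjusted p = 0.0269), Krt8 fell by 2.15 ± 0.38 (adjusted p = 0.000888) and Krt18 by 1.18 ± 0.37 on the log2 scale (adjusted p = 0.0248, edgeR). With Afp, 4 of 9 tested members passed there, against 33.5% of all tested genes. The calls of Apoe and Krt18 were lost without library 18 (adjusted p = 0.173 and 0.275), that of Apoe also without library 10 (adjusted p = 0.285) and that of Krt18 also without library 20 (adjusted p = 0.207). No member passed the test of the GLI1 OE effect at D12 minus that at D6 in edgeR, DESeq2 or limma-voom, none having an unadjusted p under 0.05 in edgeR (0.604% of tested genes passed). For Foxa2 the difference was -4.47 on the log2 scale (adjusted p = 0.719, edgeR).

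Over the 18 libraries the tested genes most like Foxa2 were, by Pearson correlation of log2 CPM, Hapln3 (0.972), BC030870 (0.959), Ptch1 (0.959), Aff3 (0.955) and Fxyd6 (0.955). The libraries share groups, so these are descriptions. Hapln3, a link protein of extracellular matrix, stood at 3.54 CPM in D6 controls and 463.8 CPM in D6 GLI1 OE. Ptch1, the Hedgehog receptor and a standard GLI target, stood at 53.2 and 1010 CPM. At D8, Hapln3 and Ptch1 were also higher in library 18 (27.6 and 104.7 CPM) than in library 14 (2.68 and 39.7 CPM), as Foxa2 was. Among the members, the correlation with Foxa2 was 0.893 for Alb and 0.778 for Ttr, 0.593 for Foxa1, 0.438 for Apoa1, 0.302 for Afp, 0.370 for Krt18, 0.329 for Krt8 and -0.550 for Apoe. Alb passed the filter through the D6 GLI1 OE libraries alone, where Foxa2 was highest, so a high correlation was built in. Of the 14892 tested genes, with Foxa2 itself at rank 1, Alb was at rank 43, Ttr at 182, Foxa1 at 734 and Apoa1 at 2025. Krt18 was at rank 2904, Krt8 at 3524, Afp at 3872 and Apoe at 14013.

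None of the other endoderm genes was called at D6, where 4.14% of all 14892 tested genes were. At that share, 0 calls in lists this short do not set them apart. An unadjusted p under 0.05 was found for 2348 of the 14892 (edgeR). Of 16 definitive and gut endoderm genes 10 were tested and 0 were called by edgeR, 2 having an unadjusted p under 0.05. Prox1 (log2 fold change -1.30 ± 0.40, adjusted p = 0.102) and Gata6 (-0.77 ± 0.33, adjusted p = 0.258) had the smallest adjusted p. The endoderm factor Sox17 had 138, 291 and 325 reads in D6 GLI1 OE and 122, 173 and 260 in controls, with overlap. Of the 17 liver and visceral endoderm genes 8 were tested and 0 were called, 2 having an unadjusted p under 0.05, led by Dab2 (-0.79 ± 0.29, adjusted p = 0.167) and Rbp4, the partner of Ttr (1.03 ± 0.45, adjusted p = 0.279). Of 14 simple epithelial genes 13 were tested and 0 were called, none having an unadjusted p under 0.05, led by Cldn4 (-1.33 ± 0.73, adjusted p = 0.424), all by edgeR. The summed levels of the 2 endoderm lists were lower with induction: 134 to 161 against 179 to 282 CPM for the first, and 127 to 135 against 171 to 215 CPM for the second. Gata6 (74.0 against 125.9 CPM) made up much of the first sum and Dab2 (100.5 against 174.2 CPM) most of the second. In the controls, which are labelled as cardiac cells, Gata6 rose from 93.1 CPM at D5 to 302.1 CPM at D12, while Dab2 went from 210.5 to 120.8 CPM. Whether the lower sums reflect endoderm cells was not tested. By gene, 3 of the 10 tested estimates of the first list and 5 of the 8 of the second were above 0, with medians of -0.34 and 0.22. The epithelial sums overlapped, at 461 to 677 and 406 to 701 CPM.

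Foxa2 is also a gene of the floor plate and notochord, and of that list 9 of 14 genes were tested. At D6, 1 was called higher and 1 lower, where 4.14% of all tested genes were called. Nkx2-9, a homeobox gene induced by Hedgehog in the ventral neural tube, rose from 2.97 ± 1.06 to 95.8 ± 39.0 CPM (log2 fold change 5.01 ± 0.49, adjusted p = 4.31e-05, edgeR). At D8 it had 6 and 8 reads in GLI1 OE libraries 14 and 18 and 5 and 12 in controls, with overlap. Corin, a serine protease, fell by 2.58 ± 0.67 on the log2 scale (adjusted p = 0.0439, edgeR). Corin was read in all controls, which are labelled as cardiac cells. Its control means were 40.2 CPM at D5, 48.9 at D6, 42.6 at D8 and 97.5 at D12. Whether its fall reflects floor plate or notochord cells was not tested. In all 3 genes of this list had an unadjusted p under 0.05, and 4 of the 9 tested estimates were above 0. T, the notochord and mesoderm factor brachyury, had 244, 344 and 168 reads in D6 GLI1 OE and 20, 65 and 35 in controls, without overlap (log2 fold change 2.66 ± 0.95, adjusted p = 0.163, edgeR). Ntn1, an axon guidance gene of the floor plate, had 328, 387 and 342 against 133, 154 and 89 (1.47 ± 0.72, adjusted p = 0.343, edgeR), and Nkx2-2, not tested, 4, 10 and 6 against none. Shh, the Hedgehog ligand made by floor plate and notochord, had 14, 3 and 14 reads in D6 GLI1 OE and 50, 11 and 18 in controls, with overlap (-1.37 ± 0.81, adjusted p = 0.475, edgeR). These 4 genes were chosen after their values were seen.

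Of the lists for other cell types at D6, 1 gene passed, where 4.14% of all tested genes did. This was the neural gene Dcx, which fell by 3.03 ± 0.57 on the log2 scale (adjusted p = 0.00627, edgeR), against Pax6 at -1.62 ± 1.10 (adjusted p = 0.560, edgeR). Dcx was low in both groups, with 6 reads over the D6 GLI1 OE libraries and 51 over the D6 controls (0.0896 and 0.776 CPM). None of 13 cardiac genes was called (Tbx20 -2.19 ± 0.60, adjusted p = 0.0588; Gata4 -1.49 ± 0.47, adjusted p = 0.113), though 5 had an unadjusted p under 0.05. The 5 endothelial genes (Cdh5 0.48 ± 0.68, adjusted p = 0.836; Emcn 0.44 ± 0.68, adjusted p = 0.857) and the 5 blood genes (Runx1 -1.33 ± 0.46, adjusted p = 0.144; Hbb-y -1.94 ± 0.99, adjusted p = 0.372) gave 0 calls in edgeR, with 0 and 1 genes at an unadjusted p under 0.05. So did the 4 tested pluripotency genes (Nanog 0.56 ± 0.78, adjusted p = 0.833; Sox2 0.38 ± 0.59, adjusted p = 0.856), none with an unadjusted p under 0.05. At D8 and D12 no gene of any of the 9 lists was called, as none of all tested genes was (0%, edgeR).

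Before induction the authors' deposited TPM values, which allow levels to be compared between genes, put Apoe at 498.5 ± 250, Krt8 at 448.4 ± 71.3 and Krt18 at 378.6 ± 50.4 in the D5 controls (SD, n = 4). Apoa1 stood at 0.606 ± 0.570, Foxa1 at 0.328 ± 0.281, Foxa2 at 0.248 ± 0.0942 and Foxa3 at 0.0980 ± 0.196 TPM, and the ranges of these 4 overlapped, as did those of the 3 abundant genes. Alb, Afp and Ttr are listed at 0 TPM in all 4, although the count table gives 0 to 3 reads of Afp and of Ttr in the same group. Foxa1 split the D5 controls, with 20 and 19 reads in libraries 1 and 2 and 3 in each of libraries 3 and 4.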

How the data were processed

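PolyA RNA of 18 libraries in 7 groups was read from 1 end over 50 bases, as the labels' protocols state. The authors deposited raw read counts per gene symbol, TPM values of the D5 controls, and tables of log2 fold changes with p-values and adjusted p-values for D6, D8 and D12. How reads were aligned and counted, whether strand was used, and the build: not given in the sources used here. GENCODE vM21 annotates an opposite-strand gene overlapping Afp and another overlapping Krt8, whose reads may be shared. Count columns carry library numbers but no replicate numbers, and libraries are named by them. Separate cultures are not stated for replicates in the labels, and p-values thus reflect spread among these samples alone, possibly technical.

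Counts were analysed with edgeR 4.0.16 in R 4.3.3: a filter with a minimum count of 10, which 14892 of 23337 genes passed, TMM scaling, 1 robust quasi-likelihood fit of all 18 libraries with 1 coefficient per group, and Benjamini-Hochberg adjustment over all tested genes within a comparison, called under 0.05. Correlations used log2 CPM with a prior count of 2. Bounds used a floor of 3 counts over a group. Ratios carry exact 95% intervals. The SE of a log2 fold change was derived from the test, as its absolute value divided by the square root of the F statistic. Levels per length used merged exons of GENCODE vM21 (GRCm38), whose build may differ from that of the counts. DESeq2 1.42.0, limma-voom (limma 3.58.1), no filter, no TMM, fits of only the groups compared, a replicate block and leaving out each library were alternatives. Leaving out a D8 or D12 library leaves 1 in its group, which is then assumed to vary like the other groups, so such p-values take their spread from those. The fit was also run on simulated data, with changes set only in genes averaging above 1 CPM. That run does not cover genes below this level, and its outcome is not given here. The TPM values and the deposited p-values entered no test.

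The members, the 9 marker lists (93 symbols, all in the table) and the tests were chosen with earlier results of these data known. Named were the 10 members, Gli1, up to 2 genes per list with the smallest adjusted p at D6, and the 5 tested genes most correlated with Foxa2, predicted names left out; 1 gene this rule names is not reported here. Sox17, Shh, T, Ntn1, Nkx2-2, Apob, Hnf4a, Ahsg and Trf were added after their values were seen. Neighbouring library numbers paired control and GLI1 OE at D6: the deviations from the group means of numbers 11 and 12, 15 and 16, and 3 and 4 correlated at 0.617, 0.445 and 0.520 over 14892 genes.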

Additional observations from a re-analysis of the deposited data

Results flagged for a closer look

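Apoe in D5 control library 4 stood at 500.6 CPM, apart from the other D5 controls at 192.5, 214.8 and 234.2 CPM. Its gap to the nearest was 0.865 of the group's range, above the limit for 4 samples. Chance passes that limit in about 1 of 20 groups, and 10 groups were examined. No tested difference between days in the effect of GLI1 OE passed for a member.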

How the results depend on the processing

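The rise of Foxa2 at D6 was called under all 12 alternatives, with log2 fold changes of 7.06 to 7.74. Pairing by neighbouring library numbers as a replicate block gave 7.47 (adjusted p = 0.00034, edgeR), kept 2 members called at D6 (Alb at an adjusted p of 0.0473) and 0 at D8 and D12, and changed no other call. At D12 the neighbouring numbers correlated at -0.231, and crossing them also left 0 members called. DESeq2 called 1 member at D6 and 1 at D8. The D8 to D12 control comparison gave 1 member without the filter and 1 without TMM. The D8 to D12 GLI1 OE comparison gave 0 members, and 0 genes, when only its own groups were fitted. Leaving out 1 library gave 1 to 2 members for GLI1 OE at D6, 0 to 1 at D8, 2 to 3 for controls from D6 to D8, 1 for controls from D8 to D12, 2 to 5 for GLI1 OE from D6 to D8 and 1 to 4 for GLI1 OE from D8 to D12. The cause was not tested beyond the libraries left out. With all libraries, 4.14%, 0%, 34.8%, 36.3%, 40.1% and 33.5% of all tested genes passed in these comparisons, in the same order. Without 1 D6 library, 4077 to 4358 genes were called for controls from D6 to D8, against 5178 with all libraries. For GLI1 OE from D6 to D8 they were 4779 to 5169, against 5970.

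Uncalled log2 fold changes that turned sign were Krt18 at D12 (0.0025 without the filter and 0.081 without TMM, -0.49 to 0.37 over the fits without 1 library). The others turned only when 1 library was left out: at D6 Krt8 (-0.21 to 0.10) and Krt18 (-0.36 to 0.14), at D8 Afp (-1.15 to 4.40), and at D12 Foxa1 (-2.50 to 3.28), Afp (-3.38 to 5.56), Ttr (-0.65 to 2.75), Apoa1 (-0.42 to 8.13) and Krt8 (-0.30 to 0.87). Over all genes, the D6 comparison called 616 genes, 1254 when only its groups were fitted, 1030 with DESeq2 and 330 to 458 without 1 library. The effect at D8 minus that at D6 called 94 genes and 233 with DESeq2 (48 to 91 without 1 library), and that at D12 minus D6 called 90, 208 with only its groups, 276 with DESeq2 and 12 without library 20. With 2 libraries a group at D8 and D12 and reads often under 10 for the low members, even large differences there could go uncalled. Estimates of 50.9-fold for Foxa2 at D8 (adjusted p = 0.489) and 18.8-fold for Apoa1 at D12 (adjusted p = 0.7999) were not called by edgeR.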
